A study of Mus musculus with 16 samples.

Results

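The cytosolic ribosomal protein genes were taken from the deposited comparison of spaceflight with ground control mouse retinas. They were the symbols that start with Rpl or Rps followed by a digit, together with Rplp0, Rplp1, Rplp2, Rpsa and Fau, without the Rps6k kinases and the symbols that contain -ps. The rule found 87 of 25905 genes, of which 52 belong to the large subunit, 34 to the small subunit, and Rps19bp1 to neither, since it encodes a protein that binds Rps19 and not a part of the ribosome. Within these, 78 are the standard ribosomal proteins (46 large, 32 small) and 8 are paralogs of them, Rpl3l, Rpl7l1, Rpl10l, Rpl22l1, Rpl36al, Rpl39l, Rps27l and Rps4y2.

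The series held 16 retinas of wild type male C57BL/6 mice, labelled as 10 weeks old, which for the flown mice was the age at the start of the flight. The spaceflight group was 8 mice that lived for 35 days in Rodent Habitats on the International Space Station and were returned alive. The ground control group was 8 mice kept on Earth in the same hardware. Eyes were collected about 38 h after splashdown, so the flight retinas also carry the landing and the hours on Earth that followed it. Retinas of right eyes were fresh-frozen, and a stranded RNA sequencing library was made from each after depletion of ribosomal RNA.

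A ribosome is built from ribosomal RNA and a fixed set of proteins, in a large subunit that joins amino acids and a small subunit that reads the mRNA. Cells need the proteins in fixed proportions and degrade those left unassembled. Most of their mRNAs start with a cytosine followed by a run of pyrimidines, called a 5′ terminal oligopyrimidine (TOP) tract, through which the mTOR kinase pathway controls their translation. Because that control acts on translation, an mRNA level says little of how much protein is made.

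The tract carries the link to mTOR, so annotated starts of members are shown here from 15 bases before the start to 15 bases from it, in the RefSeq build GRCm38.p6, which is not the build the reads were mapped to. Capitals mark the pyrimidine run that begins at the start. Rps21 is shown because it passed the test between groups, Rps6 because it is the classic substrate of the S6 kinases, Rplp2 as a protein of the stalk, Rpl14 because it had the lowest log2 fold-change among tested members, and Fau and Rpl38 because their counts were too low to test.
Rps21, chr2:180257364-180257393, plus strand: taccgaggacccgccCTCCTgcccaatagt
Rps6, chr4:86857353-86857382, minus strand: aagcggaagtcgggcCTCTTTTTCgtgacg
Rplp2, chr7:141447636-141447665, plus strand: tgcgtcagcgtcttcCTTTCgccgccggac
Rpl14, chr9:120571502-120571531, plus strand: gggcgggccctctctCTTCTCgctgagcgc
Fau, chr19:6057932-6057961, plus strand: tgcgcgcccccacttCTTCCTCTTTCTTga
Rpl38, chr11:114668565-114668594, plus strand: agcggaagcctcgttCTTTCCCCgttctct

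The run was 5 bases long in Rps21 and Rplp2, 6 in Rpl14, 8 in Rpl38, 9 in Rps6 and 13 in Fau. Of the member genes, 66 had an annotated start in the RefSeq table. A C at a start followed by at least 4 pyrimidines was found in 14 of these 66 genes (21.2%), against 813 of all 27025 genes with a start (3.01%). The letters CTTTCC, made of pyrimidines only and so able to lie inside such a run, were searched on the coding strand within 50 bases on either side of a start. They were present in 20 of 66 member genes (30.3%) and in 1468 of 27025 genes (5.43%). A start that differs from the annotated one by a base can hide a tract, so the absence of a match describes the annotation only.

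Of the 87 genes, 74 had an adjusted p-value in the deposited DESeq2 comparison and count as tested here. The 13 others had mean normalized counts of 8.45 or less, where the tested members lay between 92.8 (Rps27l) and 4340 (Rpl21). Among the 13 were 10 standard ribosomal proteins, all of them genes that every cell needs to build ribosomes. Rpl38 and Rps27a were listed at 0, Rps24 had a mean normalized count of 0.582, Rpl35a of 0.942, Rpl19 of 1.2, Fau of 1.96, Rpl5 of 2.22, Rpl30 of 2.79, Rps27 of 5.57 and Rpl34 of 8.45. The other 3 were the paralogs Rpl10l, listed at 0, Rpl39l at 0.125 and Rpl3l at 0.908.

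The low values went with the number of transcript records in the count table. That table has 1 row per RefSeq transcript record, and 10 members have more than 1 record under their symbol: Fau, Rpl19, Rpl30, Rpl34, Rpl35a, Rpl38, Rpl3l, Rps24, Rps27 and Rps27a. None of these 10 was tested, and their highest mean normalized count was 8.45. Of the 77 members with 1 record, 74 were tested, and the exceptions were Rpl5, Rpl10l and Rpl39l. Across all genes, 633 of 3794 symbols with more than 1 record were tested (16.7%), with a median mean normalized count of 0.806. Of 22086 symbols with 1 record, 10021 were tested (45.4%), with a median of 12.9. Mitochondrial ribosomal proteins had the same split, with 69 of 69 symbols of 1 record tested and 2 of 7 symbols of more than 1. How a read that lies in more than 1 record was counted is not given in the sources used here, and its part in the low values was not tested. For the 10 standard proteins that were not tested, no comparison between the groups is given here.

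**Figure D1:**
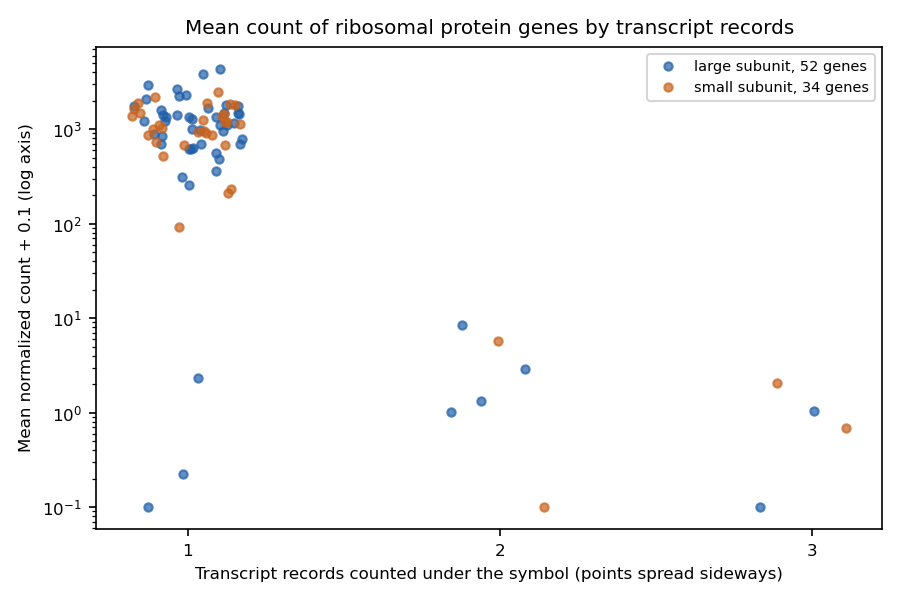
Mean normalized count over all 16 libraries, plus 0.1 on a log axis, of each large subunit gene (blue, 52) and small subunit gene (orange, 34) by how many transcript records the count table holds under its symbol. Every gene with 2 or 3 records sits at 8.45 or below, while 73 of the 76 ribosomal protein genes with 1 record sit at 92.8 or above.

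Ribosomal protein mRNAs lay slightly higher in the spaceflight group, in both subunits, and few single genes passed the test. An adjusted p-value under 0.1 was reached by 4 of 74 members, all higher in spaceflight. They were Rpl23a, which lines the rim of the exit tunnel, Rpl3, a protein at the core of the large subunit, the small subunit protein Rps21, and a gene that is not reported here. Among all 10669 tested genes, 5.62% passed at this threshold, 2.68% higher and 2.94% lower, near the members' share of 5.41%. The 2134 tested genes with the highest mean normalized counts had a median count of 1236, closer to the members' median of 1181. Of these 2134 genes, 12.1% passed, above the members' share. The number of members that passed is therefore not a result about these genes. At an unadjusted p-value under 0.05, 18 of 74 members were higher (24.3%) and 0 lower, beside 6.83% of all tested genes higher and 7.93% lower. Of the 2134 genes with the highest counts, 221 were higher at that level (10.4%) and 314 lower. The log2 fold-change was above 0 in 59 of 74 members (79.7%), beside 47.8% of all tested genes and 43.2% of those 2134. The median log2 fold-change of the members was 0.07, equal to 5.31% above ground control, and that of all tested genes was -0.0059. The members share the same libraries and size factors and are not replicates of each other, so no p-value was computed for them as a list. In bulk retina, fewer cells of a type and less RNA per cell cannot be told apart.

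Rpl23a had the lowest adjusted p-value among the members, 0.0153, with a log2 fold-change of 0.21 (95% interval 0.09 to 0.32, SE 0.058), a rise of 15.5%. Rpl3 rose by 14.0%, a log2 fold-change of 0.19 (0.07 to 0.31, adjusted p-value 0.0619), and Rps21 by 13.8%, a log2 fold-change of 0.19 (0.06 to 0.31, adjusted p-value 0.0630). These 3 changes were of like size, and each interval holds the other 2 estimates. Rps16 came next, with an adjusted p-value of 0.119 and a log2 fold-change of 0.11 (0.03 to 0.19). Tested against a minimum change of 1.1-fold, 0 of the 4 passed. When the median log2 fold-change of the most abundant 20% of genes, -0.014, was set to 0, a choice made after seeing the data, 8 members passed, with Rpl4, Rpl7, Rpl9 and Rps16 added. The share of all tested genes that passed with this centring is not given here, so the rise from 4 is not a result about the members.

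**Figure D2:**
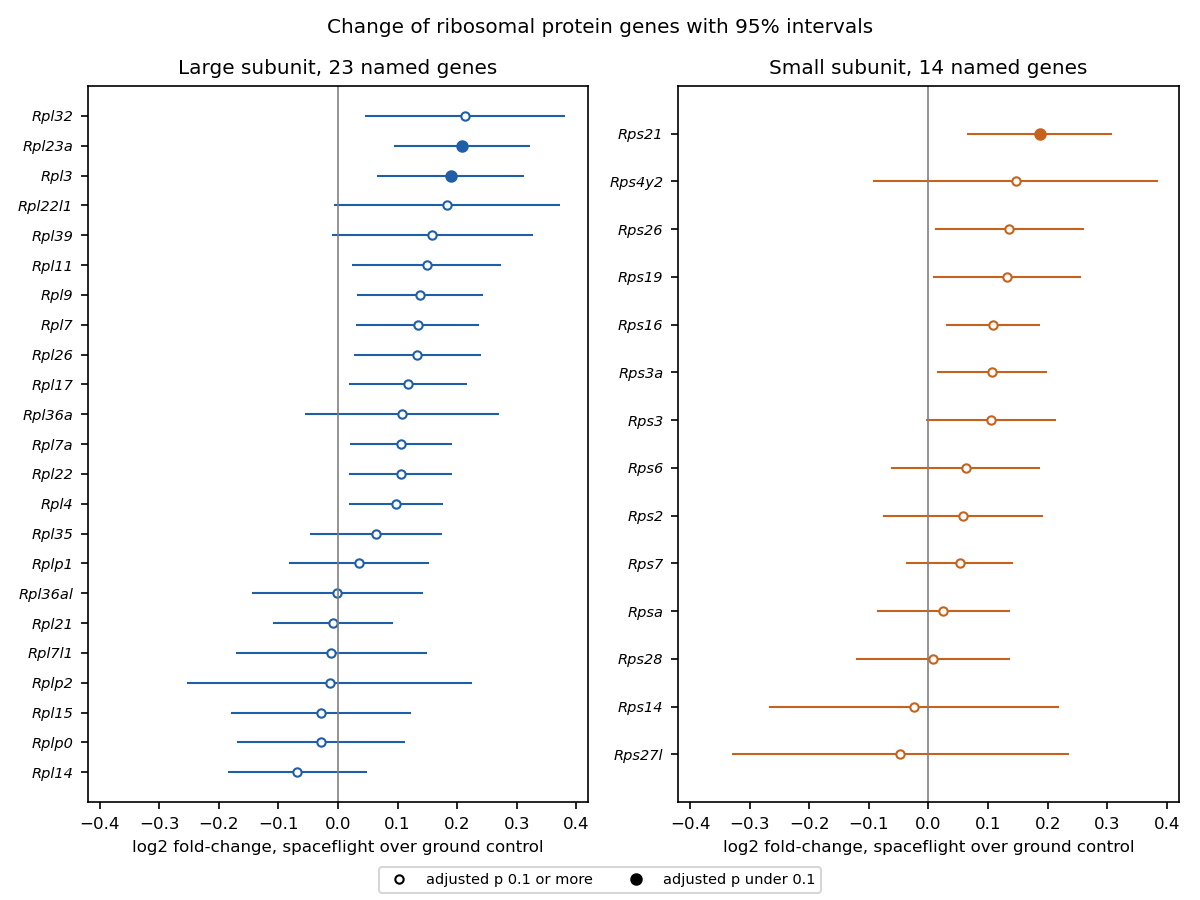
Log2 fold-change (spaceflight against ground control) of the tested large subunit genes (left) and small subunit genes (right) that are named in the text, 8 mice a group, with 95% intervals from the deposited standard errors as lines. Filled points have an adjusted p-value under 0.1 (Rpl23a, Rpl3 and Rps21). In both panels most points lie right of 0, and no interval lies wholly left of it. Genes were named in part for an unadjusted p-value under 0.05, which only members higher in spaceflight reached. The share of points right of 0 therefore follows in part from how genes were named.

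Values per mouse cannot be given, since the columns of the count tables carry laboratory codes that no label ties to a mouse or a group. The error of each change is therefore the deposited standard error, which for the members ran from 0.040 (Rpl4) to 0.144 (Rps27l), with a median of 0.0625, against a median of 0.0844 over all tested genes. Upper bounds of the 95% intervals reached a log2 fold-change of 0.39 for Rps4y2, 0.38 for Rpl32 and 0.37 for Rpl22l1. Lower bounds reached -0.33 for Rps27l, -0.27 for Rps14 and -0.25 for Rplp2.

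The large and small subunits had nearly the same median change. In the large subunit, 2 of 43 tested genes passed the threshold (4.65%), the median log2 fold-change was 0.08, and 32 genes lay above 0 and 11 below. In the small subunit, 2 of 30 passed (6.67%), the median was 0.07, and 27 lay above 0 and 3 below. The middle 50% of values ran from 0.0026 to 0.11 in the large and from 0.029 to 0.11 in the small subunit. At an unadjusted p-value under 0.05, 12 large subunit genes (27.9%) and 6 small subunit genes (20%) were higher and 0 of either were lower. Beside these, 6.83% of all tested genes were higher and 7.93% lower at that level. The threshold itself was passed by 5.62% of all tested genes, near the share of either subunit, so those counts are not a result about the subunits. The difference between the subunits was not tested. Without the paralogs, the medians were 0.08 for 40 large and 0.07 for 28 small subunit genes.

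Rpl32 had the highest log2 fold-change of all members, 0.21 (95% interval 0.04 to 0.38), but a standard error of 0.086 left its adjusted p-value at 0.169. Below the genes past the threshold came Rpl22l1 and Rpl39, whose intervals reach below 0. At the other end, Rpl14, a large subunit protein, had -0.07 (-0.19 to 0.05), followed by Rps27l at -0.05, Rps19bp1 at -0.04, and Rplp0 and Rpl15, both at -0.03. No member below 0 passed even at an unadjusted p-value under 0.05. Read against all tested genes, the members ran from the 27.9th percentile of log2 fold-change (Rpl14) to the 94.4th (Rpl32).

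The 5 members that carried the most counts lay between log2 fold-changes of -0.07 and 0.14. These means are not corrected for transcript length and do not rank the mRNAs by abundance. Rpl21 had a mean normalized count of 4340 and a log2 fold-change of -0.01 (-0.11 to 0.09). Rpl4 had 3876 counts and 0.10 (0.02 to 0.18), Rpl9 2961 and 0.14 (0.03 to 0.24), Rpl14 2688 and -0.07, and Rps7 2459 and 0.05 (-0.04 to 0.14). Across the 74 tested members, which come from the same 16 libraries, the log2 fold-change had a Pearson's r of 0.15 and a Spearman's rho of 0.11 with the log2 mean normalized count. All 87 together held 1.34% of the summed mean normalized counts, 0.84% in the large and 0.50% in the small subunit genes. These sums include the 10 standard proteins that were not tested, 6 large and 4 small, at 8.45 or less each. If those values are too low, so are these shares.

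**Figure D3:**
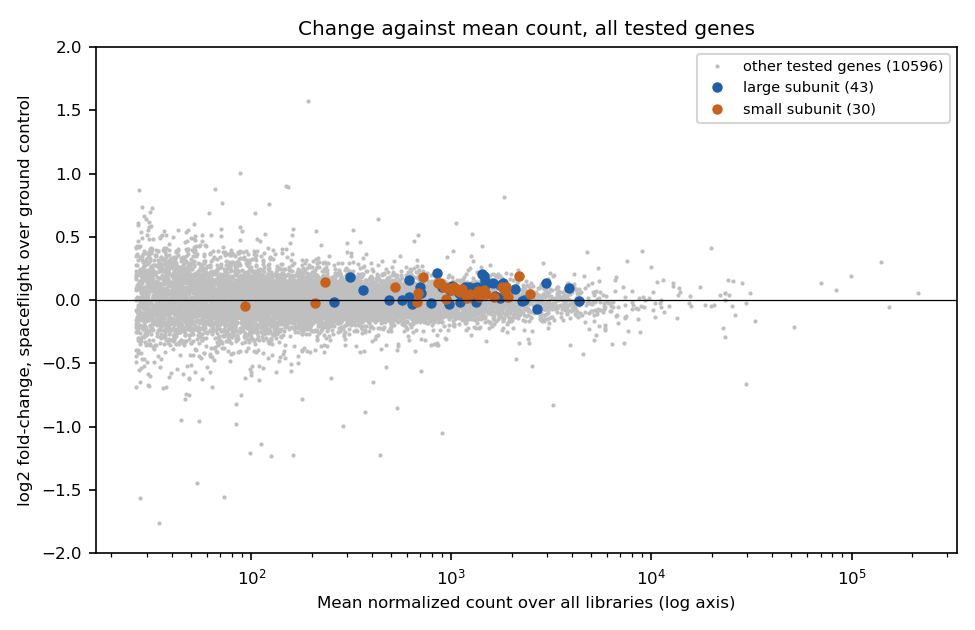
Log2 fold-change (spaceflight against ground control) plotted over the mean normalized count over all libraries (log axis) for 43 large subunit genes (blue), 30 small subunit genes (orange) and the other tested genes (grey). The ribosomal protein genes sit within a log2 fold-change of -0.07 and 0.21, among genes of like counts with a wider range.

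At the polypeptide exit tunnel, through which the new chain leaves the large subunit, Rpl4 and Rpl17 line the narrow part, Rpl39 lies further out, and Rpl23a, Rpl35 and Rpl26 sit around the rim where chaperones and the signal recognition particle dock. All 6 had log2 fold-changes above 0, beside 74.4% of tested large subunit genes and 47.8% of all tested genes. A value above 0 is therefore not particular to these 6. Rpl23a was the only one of these 6 past the threshold, which 5.62% of all tested genes passed. Rpl39 had 0.16 (-0.01 to 0.33), Rpl26 0.13 (0.03 to 0.24), Rpl17 0.12 (0.02 to 0.22), Rpl4 0.10 (0.02 to 0.18) and Rpl35 0.06 (-0.05 to 0.17). Rpl17, Rpl26 and Rpl4 had unadjusted p-values under 0.05 (0.0191, 0.0148 and 0.0151), and their adjusted p-values were 0.208, 0.181 and 0.183.

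The stalk of the large subunit, made of Rplp0 and the acidic proteins Rplp1 and Rplp2, recruits elongation factors. Its 3 genes lay on either side of 0, with Rplp1 at 0.03 (-0.08 to 0.15), Rplp2 at -0.01 (-0.25 to 0.23) and Rplp0 at -0.03 (-0.17 to 0.11). Rpl5 and Rpl11 carry the small ribosomal RNA of the large subunit and, when free, bind Mdm2 and so stabilise p53. Rpl11 had a log2 fold-change of 0.15 (0.02 to 0.27, adjusted p-value 0.210), while Rpl5 could not be read.

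In the small subunit, Rps2 and Rps3 lie at the entry of the mRNA channel and Rps26 and Rps28 at its exit. Rps26 had a log2 fold-change of 0.14 (0.01 to 0.26, adjusted p-value 0.278), Rps3 0.11 (-0.0046 to 0.21), Rps2 0.06 (-0.08 to 0.19) and Rps28 0.0081 (-0.12 to 0.14). Rps6, whose protein is phosphorylated by the S6 kinases downstream of mTOR, had 0.06 (-0.06 to 0.19, adjusted p-value 0.729.) Rps19, whose human counterpart is mutated in Diamond-Blackfan anaemia, had 0.13 (0.01 to 0.26, adjusted p-value 0.291.) Of the genes that make a ribosomal protein as a fusion to ubiquitin or a like protein, Rps27a and Fau could not be read.

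Other members had an unadjusted p-value under 0.05 and did not pass after adjustment. Among them were Rpl9 at 0.14, Rpl7 at 0.13, and Rpl7a and Rpl22 both at 0.11 in the large subunit, and Rps3a at 0.11 in the small subunit. Their adjusted p-values lay between 0.155 (Rpl9) and 0.230 (Rps3a).

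Of the 8 paralogs, 5 were tested and 0 passed in the DESeq2 comparison, also at an unadjusted p-value under 0.05. Rpl22l1, a paralog of Rpl22 that binds RNA, had a log2 fold-change of 0.18 (-0.01 to 0.37), beside 0.11 (0.02 to 0.19) for Rpl22 itself. Rpl36al had -0.0013 (-0.14 to 0.14) beside 0.11 (-0.05 to 0.27) for Rpl36a. Rpl7l1 had -0.01 (-0.17 to 0.15), and Rps27l, known as a p53 target, had -0.05 (-0.33 to 0.24). Rps4y2 had 0.15 (-0.09 to 0.39), and the RefSeq table used here lists it under Rps4l as a transcribed pseudogene. Rps19bp1 had -0.04 (-0.20 to 0.12).

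Ribosomal protein genes have many processed pseudogenes, so a short read can fit several places. For the 86 members with a reference transcript, the share of 75-base windows, the read length of the study, found also in another annotated gene had a median of 47.9% and ran from 0% to 98.5% (Rps27). It was 81.7% in Rpl23a, 57.3% in Rpl3 and 6.56% in Rps21, so of these 3 genes that passed, Rps21 had the fewest shared windows. The 33 tested members with over 50% shared windows had a median log2 fold-change of 0.08, with 3 past the threshold (9.09%). The 40 with 50% or less had 0.06, with 1 past it (2.5%), beside 5.62% of all tested genes. Of the 2134 tested genes with the highest mean normalized counts, 12.1% passed. Rps3, with no shared window, had 0.11. How reads that fit several places were treated is not given in the sources used here, and counts of members with shared windows are uncertain for this reason.

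Introns of ribosomal protein genes often hold small nucleolar RNAs, which guide the modification of ribosomal RNA. Such an RNA is annotated inside 30 members, among them Rpl4 with 5, Rpl23a with 3 and Rpl3 with 2. The 28 tested hosts had a median log2 fold-change of 0.09, with 24 above 0 and 3 past the threshold (10.7%). The share past it was 5.62% of all tested genes and 12.1% of the 2134 with the highest mean normalized counts. The 45 tested members without one had 0.06, with 34 above 0 and 1 past it (Rps21, 2.22%). The median mean normalized count was 1371 in the hosts and 1095 in the others. Whether hosts and other members differ was not tested.

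Among the members, the log2 fold-change was only weakly related to base composition. Over the 73 tested members with a reference transcript, the log2 fold-change had a Pearson's r of -0.25 and a Spearman's rho of -0.30 with GC content. With a trend over all genes on GC content and on transcript length removed, the median of the members was 0.06 and the same 4 genes passed. The 10 tested members with a TOP tract at an annotated start had a median of 0.01, with 6 above 0 and only Rps21 past the threshold. The 45 tested members with a start but no tract there had a median of 0.08, with 37 above 0 and none past the threshold in the DESeq2 comparison. These shares hold for annotated starts only, and Rpl23a and Rpl3 had no start to search.

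Mitochondrial ribosomal proteins, which build the separate ribosome that translates mitochondrial mRNAs, did not lie higher. Of 71 tested, 2 passed in the DESeq2 comparison, which is 2.82% of the list beside 5.62% of all tested genes. Mrpl41 was higher with 0.29 (0.10 to 0.48, adjusted p-value 0.0685), and Mrps28 was lower with -0.27 (-0.45 to -0.10, adjusted p-value 0.0568). The median log2 fold-change of the 71 was -0.01, with 30 above 0 and 41 below.

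**Figure D4:**
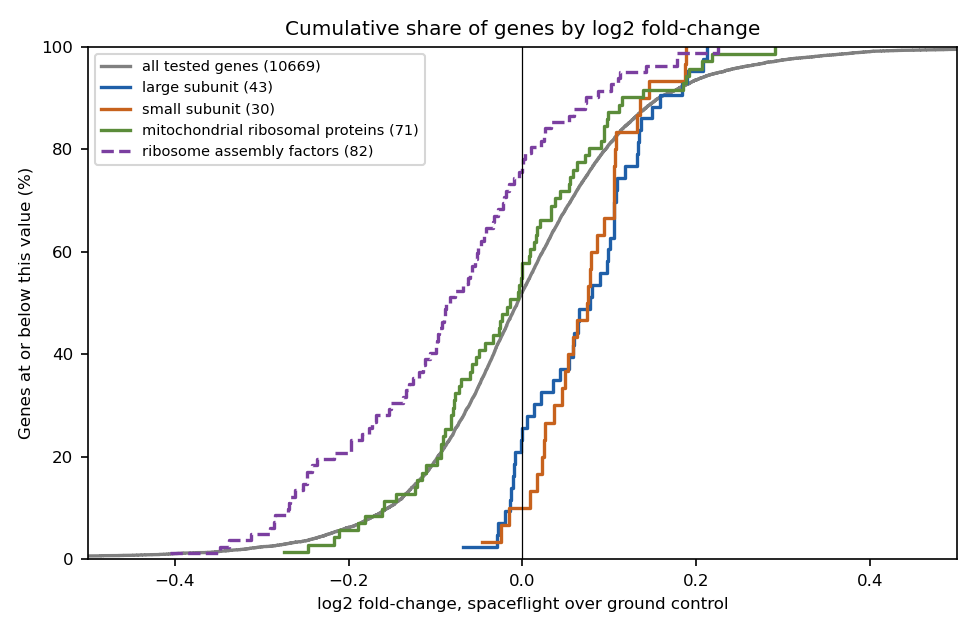
Cumulative share of genes (%) by log2 fold-change between spaceflight and ground control for all tested genes (grey, 10669), large subunit (blue, 43), small subunit (orange, 30), mitochondrial ribosomal proteins (green, 71) and ribosome assembly factors (purple dashes, 82). The cytosolic subunits run right of all genes with medians of 0.08 and 0.07, the mitochondrial proteins run close to all genes, and the assembly factors run left with a median of -0.09.

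Ribosome assembly factors, the nucleolar proteins that make and process ribosomal RNA and join it to ribosomal proteins, lay on the other side of 0. Of 82 tested, 1 was higher, Rexo4 at 0.23 (0.09 to 0.36), and 16 were lower, with a median over the list of -0.09 and 63 genes below 0. The 17 genes past the threshold are 20.7% of the list, beside 5.62% of all tested genes. Among them Mybbp1a, which acts on transcription of ribosomal RNA, had -0.24 (-0.33 to -0.16), Ddx21, a nucleolar helicase, -0.25 (-0.37 to -0.13), and Tcof1, a cofactor of RNA polymerase I, -0.24 (-0.36 to -0.11). The processing factors Nol6 and Rcl1 had -0.26 (-0.38 to -0.14) and -0.41 (-0.64 to -0.17). The difference between assembly factors and ribosomal proteins was not tested.

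Translation factors and other genes known for TOP tracts were measured in the same comparison. Of 49 tested, 4 were higher and 1 was lower, which is 10.2% of the list beside 5.62% of all tested genes, and the median log2 fold-change was 0.0017. Of the 2134 tested genes with the highest mean normalized counts, 12.1% passed. The median mean normalized count was 230 in all tested genes, 1236 in those 2134 and 705 in the list. The list's share past the threshold likewise lay between theirs and is not read as a result about the list. Higher were Eef2, which moves the ribosome along the mRNA, at 0.14 (0.09 to 0.20, adjusted p-value 2.1e-05), Eif3f, a subunit of initiation factor 3, at 0.17 (0.10 to 0.25), Gnb2l1, the small subunit scaffold RACK1, at 0.15 (0.06 to 0.24), and Eef1a1, which brings tRNAs to the ribosome, at 0.10 (0.03 to 0.17). Etf1, which ends translation at stop codons, was lower at -0.17 (-0.29 to -0.06). Of the 7 genes of this list with symbols that start with Eef, 6 lay above 0, with a median of 0.11. Among all tested genes, 47.8% lay above 0. Eef1a2, the form of neurons and muscle, was the exception at -0.07 (-0.14 to -0.0041, adjusted p-value 0.292). The 30 tested initiation factor genes had a median of -0.02.

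A list for mTOR signalling held regulators of mTOR as well as genes that act between it and translation. Of its 24 tested genes, 0 were higher and 3 were lower in the DESeq2 comparison, which is 12.5% of the list beside 5.62% of all tested genes. At an unadjusted p-value under 0.05, 1 was higher, Rictor, a part of mTOR complex 2, at 0.08 (0.01 to 0.16, adjusted p-value 0.283), and 6 were lower. Of all tested genes, 6.83% were higher and 7.93% lower at that level. The kinase Mtor itself had -0.14 (-0.23 to -0.04, adjusted p-value 0.0787), Rptor, the scaffold of mTOR complex 1, -0.15 (-0.24 to -0.06, adjusted p-value 0.0288), and Sesn2, an inhibitor of that complex, -0.45 (-0.64 to -0.26, adjusted p-value 0.00034). Larp1, which binds TOP tracts, had -0.11 (-0.20 to -0.02) and Rps6kb1, an S6 kinase, -0.13 (-0.25 to -0.01), with adjusted p-values of 0.225 and 0.251. These are mRNA levels and say nothing of kinase activity.

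The tissue carried the markers of retina, with the rod gene Sag at a mean normalized count of 29757. Of 11 rod markers, 3 passed in the DESeq2 comparison (27.3%). The share was 5.62% of all tested genes and 12.1% of the 20% with the highest mean normalized counts. Rcvrn was higher at 0.26 and Sag and Pde6b were lower at -0.66 and -0.14, with 5 rod markers above 0 and 6 below. Of 5 tested cone markers, 1 passed (20%), Arr3, lower at -0.31 (adjusted p-value 5.45e-06). In the cone list 3 markers lay above 0 and 2 below, with a median log2 fold-change of 0.06. None of 4 tested Müller glia and 3 tested immune markers passed in the DESeq2 comparison. Of these, 1 had an unadjusted p-value under 0.05, Glul with a log2 fold-change of 0.10. All 10 tested lens markers lay below 0, with log2 fold-changes from -1.22 to -0.04, and 5 of 6 pigment epithelium markers did. None of these 16 passed in the DESeq2 comparison, also at an unadjusted p-value under 0.05, with median standard errors of 0.970 and 0.430. Blood and skeletal muscle markers were too low to test, with summed mean normalized counts of 12.3 and 27.4. The part of these cell types in the ribosomal protein values was not tested.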

How the data were processed

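Total RNA from 16 mouse retinas (8 spaceflight, 8 ground control) was sequenced as 75-base single reads. The authors used Trimmomatic to trim reads, TopHat2 to map them to an NCBI mouse assembly older than GRCm38, and HTSeq to count them. The deposited comparison, made by the authors with DESeq2 1.22.2 in R 3.5.1, holds for each symbol a mean normalized count (a signal: counts over size factors, averaged over all libraries), a log2 fold-change with its standard error, a Wald statistic (a score) and a p-value with its Benjamini-Hochberg adjusted p-value. It was read as deposited, because 32 columns in 2 count tables carry codes that no label ties to a mouse and were not used. The planned edgeR test on counts could not be run, and depth and spread per mouse are not analysed here. A second deposited list holds the same comparison for genes past the threshold and was not used.

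A gene was tested if it had an adjusted p-value, and called at an adjusted p-value under 0.1. P-values recomputed from the deposited log2 fold-changes and standard errors were within 4.07e-07 of the deposited values. Intervals are 95% normal intervals. The labels give each mouse a number, and the same numbers occur in both groups, but they do not say that a number pairs mice. P-values measure the spread between these retinas. GC content, length and shared windows came from GENCODE vM21 (10074 of 10669 tested genes), starts from RefSeq. The scripts (Python 3.11.15) were tested on simulated data. Alternatives were other p-value thresholds, adjustment over all 19668 genes that have one, a mean normalized count of at least 100, removal of a GC and length trend, a test against 1.1-fold, standard proteins only and other centrings.

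The members, lists and tests were chosen with earlier results of these data known. Named genes were the members past the threshold or with an unadjusted p-value under 0.05, the 5 highest and 5 lowest by log2 fold-change, the 5 with most and 5 with fewest counts, members of fixed structural groups, all paralogs, and from other lists those past the threshold or among the 3 with most counts, of which the text gives a part. A few genes are not reported here.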

Additional observations from a re-analysis of the deposited data

How the results depend on the processing

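No paired analysis was possible because the columns of the count tables carry no mouse number, and for the same reason no fit without a replicate could be made. Of the 4 members past the threshold (2 large, 2 small, all higher), 2 remained at an adjusted p-value under 0.05 (1 in each subunit, Rpl23a in the large), 0 at 0.01, 2 when the adjustment took in every gene that has a p-value (the same 2), and 0 when the change had to be larger than 1.1-fold. With the median of the most abundant 20% of genes set to 0, chosen after seeing the data, 8 passed, 5 of them in the large subunit. The counts were 5 with a mean normalized count of at least 100 and 5 with the median of all tested genes set to 0, in both cases with Rps16 added, and 4 after removal of the GC and length trend or with standard proteins only. The share of all tested genes that passed is not given for these alternatives, so none of these counts is a result about the members. No alternative reversed the direction of a member past the threshold or of a median, while members near 0 changed sign. The median log2 fold-change of the members stayed between 0.06 and 0.09 under every alternative run, and the number above 0 was 59 of 74 as deposited, 61 and 65 with the 2 other centrings and 60 of 73 after trend removal. Depth per library was not analysed here, and the deposited standard errors are the sole measure of precision.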
